A study of Homo sapiens with 31 samples.

Results

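The sites described here were the genomic intervals in MUTZ3 cells at which peaks of both CTBP2 and EVI1 were called without doxycycline (dox) and neither was called once the 4xPLDLS peptide had been induced. They are called double-loss sites below. They were selected on peak calls in the 8 ChIP-seq libraries of the inducible experiment, by 4 conditions. A merged CTBP2 interval had to be called in both untreated CTBP2 libraries, had to overlap no peak of either dox CTBP2 library, had to overlap an EVI1 peak of at least 1 untreated EVI1 library, and had to overlap no peak of either dox EVI1 library, with 1 bp counting as an overlap. Both untreated libraries shared 37227 CTBP2 sites, of which 2615 (7.02%) met these conditions.

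EVI1, a zinc finger transcription factor encoded at the MECOM locus, is overexpressed in acute myeloid leukemia with rearrangements of its chromosome band and blocks myeloid differentiation. CTBP2 is a corepressor that does not bind DNA by itself. It holds a surface cleft for short PLDLS-type motifs, through which EVI1, the E-box-binding repressors ZEB1 and ZEB2 and other DNA-binding proteins bring it to chromatin together with histone deacetylases and the demethylase LSD1. A peptide with PLDLS repeats occupies this cleft and competes with those partners, whereas in 4xPLASS the motif is mutated.

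MUTZ3 is a human acute myelomonocytic leukemia line with high EVI1. The inducible cells carried a dox-inducible vector for a peptide of 4 PLDLS repeats (genotype pCW-4xPLDLS) in all 8 libraries, which were taken at 72 hours as bulk populations, 2 each for CTBP2 untreated, CTBP2 with dox, EVI1 untreated and EVI1 with dox. No inducible 4xPLASS control with dox was among the peak lists used here, so induction of the peptide and exposure to dox cannot be told apart. The labels do not say whether the 2 libraries of a group came from separate cultures. The other 5 peak lists were used only for comparison: EVI1 and CTBP2 in unmodified MUTZ3 cells (genotype WT, 1 library each), CTBP2 in MUTZ3 cells with a retroviral vector for 4xPLASS (2 libraries), and CTBP2 in untreated MOLM1 cells, a line from chronic myeloid leukemia in blast crisis that here carried an uninduced, dox-inducible short hairpin against EVI1 (1 library). The unmodified CTBP2 library is labelled as a single crosslink and the other 12 as double-crosslinked.

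The untreated CTBP2 lists held 62232 and 56526 peaks and the dox CTBP2 lists 24588 and 23878. The EVI1 lists held 51389 and 72214 peaks untreated and 53806 and 47599 with dox. The 5 comparison lists ranged from 6688 to 64569 peaks. The values in a list are peak positions and the fold enrichment of the summit over local background. The lists hold no read counts, and library depth is therefore unknown. When the 4 lists of each target were reduced to their strongest peaks in equal number, 297 double-loss sites were left, so the number of sites depends on the size of the lists, and the part of depth in it was not tested. That cut also shortened the untreated CTBP2 lists, from which the CTBP2 sites are drawn, so 297 is a count and not a share.

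Sequence at the CTBP2 summit (untreated replicate 1) is shown first for the strongest double-loss sites. Strength was the percentile of fold enrichment in the weaker of the 2 untreated CTBP2 libraries. A ranking by −log10 p in its place shared only 3 of the strongest 10. The 6 strongest are named by the protein-coding gene with the nearest transcription start site (TSS), and 100 bases of the plus strand of GRCh37 (hg19) are printed 5′ to 3′. They lie at chr7:87990648-87990747 (STEAP4), chr2:105505852-105505951 (POU3F3), chr3:50557117-50557216 (CACNA2D2), chr4:86718079-86718178 (ARHGAP24), chr2:202545639-202545738 (MPP4) and chr20:45386833-45386932 (SLC2A10). Capitals mark matches, on either strand, to the letters searched for EVI1 (AGATAA, GACAAGATA and GAAGATGAG), ETS factors (GGAAGT), PU.1 (GAGGAAGT), RUNX (TGTGGT), CEBP (TTGCNNAA), AP-1 (TGANTCA) and ZEB-type E-boxes (CAGGTG, which reads CACCTG on the other strand). Matches to the GC box (GGGCGG) were left in lower case.
STEAP4: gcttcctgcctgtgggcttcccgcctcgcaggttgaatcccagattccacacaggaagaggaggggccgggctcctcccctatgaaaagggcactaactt
POU3F3: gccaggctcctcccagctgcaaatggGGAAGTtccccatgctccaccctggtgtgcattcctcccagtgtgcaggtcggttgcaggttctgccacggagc
CACNA2D2: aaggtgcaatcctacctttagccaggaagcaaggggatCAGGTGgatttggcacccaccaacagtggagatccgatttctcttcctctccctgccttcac
ARHGAP24: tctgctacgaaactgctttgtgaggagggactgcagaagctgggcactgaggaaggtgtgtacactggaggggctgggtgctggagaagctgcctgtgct
MPP4: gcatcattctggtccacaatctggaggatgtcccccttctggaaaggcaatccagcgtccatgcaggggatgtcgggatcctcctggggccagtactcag
SLC2A10: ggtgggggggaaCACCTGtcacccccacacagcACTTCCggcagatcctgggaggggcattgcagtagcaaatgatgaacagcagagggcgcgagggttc

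The next 4 were the strongest when EVI1 had to be called in both untreated libraries and all 4 untreated libraries were ranked, leaving out MPP4, which is printed above. They lie at chr9:613955-614054 (KANK1), chr4:187125438-187125537 (ENSG00000290316), chr1:16400172-16400271 (FAM131C) and chr1:109806247-109806346 (CELSR2). The run next to ENSG00000290316, a gene without a symbol whose nearest site lies in an intron of CYP4V2, is a tandem repeat.
KANK1: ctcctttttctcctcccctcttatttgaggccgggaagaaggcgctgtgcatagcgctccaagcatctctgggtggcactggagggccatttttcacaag
ENSG00000290316: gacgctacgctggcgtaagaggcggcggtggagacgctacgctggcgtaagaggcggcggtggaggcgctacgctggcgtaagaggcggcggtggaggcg
FAM131C: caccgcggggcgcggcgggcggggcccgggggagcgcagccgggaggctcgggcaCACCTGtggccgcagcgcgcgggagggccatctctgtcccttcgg
CELSR2: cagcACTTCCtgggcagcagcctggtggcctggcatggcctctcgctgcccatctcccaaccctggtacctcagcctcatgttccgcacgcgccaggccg

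No match to any of the 3 EVI1 site letters occurs in these 10 runs, and 3 of the 10 (CACNA2D2, SLC2A10 and FAM131C) hold a ZEB-type E-box. In CACNA2D2 and FAM131C it lies within 25 bp of the summit. Of the 11 motifs searched, that E-box was the one in which double-loss sites stood furthest above all CTBP2 sites. For this reason 4 further sites are shown, taken from the strongest not printed above with one within 25 bp of the summit. They were chosen after the values were seen and lie at chr4:189118600-189118699 (TRIML1), chr3:11278477-11278576 (ATG7), chr12:111462144-111462243 (CUX2) and chr19:13649169-13649268 (CACNA1A).
TRIML1: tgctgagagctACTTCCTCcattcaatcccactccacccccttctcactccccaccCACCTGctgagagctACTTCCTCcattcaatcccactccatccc
ATG7: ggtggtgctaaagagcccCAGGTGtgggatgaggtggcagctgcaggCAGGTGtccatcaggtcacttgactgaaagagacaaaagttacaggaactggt
CUX2: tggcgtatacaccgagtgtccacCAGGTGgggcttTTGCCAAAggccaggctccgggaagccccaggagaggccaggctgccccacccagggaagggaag
CACNA1A: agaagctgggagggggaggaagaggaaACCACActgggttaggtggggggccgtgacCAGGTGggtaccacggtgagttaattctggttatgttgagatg

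Loss of CTBP2 was frequent in this experiment and loss of EVI1 was not. Of all 37227 CTBP2 sites, 41% (15273 sites) had no dox CTBP2 peak, and of the 34901 sites with an untreated EVI1 peak 8.84% had no dox EVI1 peak. EVI1 was lost more often at sites that lost CTBP2 than at sites that kept it. Where CTBP2 was lost and EVI1 had been present, EVI1 was also lost at 2615 of 13395 sites (19.5%). Where CTBP2 was kept, EVI1 was lost at 470 of 21506 sites (2.19%). These shares are what the selection rule itself counts and are given as a description. Of CTBP2 peaks with an EVI1 peak in untreated replicate 1, 2.05% had neither protein called in untreated replicate 2. In the other direction it was 2.59%, and against a single dox replicate 10.8% to 17.6%. The rule with untreated and dox exchanged gave 42 of 16152 sites (0.260%). The dox CTBP2 lists were shorter, and the part of depth in these shares was not tested.

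EVI1 was called in both untreated libraries at 1065 double-loss sites (40.7%), in replicate 2 alone at 1255 (48.0%) and in replicate 1 alone at 295 (11.3%). Replicate 2, which had the longer list, supplied most of the sites called once. Where CTBP2 was lost and EVI1 had been called in both untreated libraries, EVI1 was lost at 10.2% of sites. Where it had been called in 1 library, it was lost at 52.3%.

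Double-loss sites were weak CTBP2 sites. Their median fold enrichment in the untreated CTBP2 libraries was 5.79 and 4.89, against 6.83 and 5.08 at the 10780 sites that lost CTBP2 and kept EVI1, 10.3 and 8.06 at the 21036 sites that kept both, and 5.11 and 4.61 at the 1878 sites that lost CTBP2 and had no untreated EVI1 peak. The strongest double-loss site in either CTBP2 library ranked 2684 and 2600. For EVI1 their medians were 4.93 and 5.13, against 6.04 and 7.55 where EVI1 was kept without CTBP2 and 8.91 and 11.6 where both were kept. When all CTBP2 sites were divided into quintiles by fold enrichment in untreated replicate 1, the share that lost both proteins was 0.322% in the strongest quintile, 2.43%, 6.69% and 11.3% in the next 3, and 14.4% in the weakest. Loss here is a missing peak call, and weaker peaks lie nearer the calling threshold. These strengths and shares therefore describe what the rule selected. The intervals were also narrow, with a median width of 457 bp against 609.5, 897 and 382 bp in the other 3 sets.

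**Figure D1:**
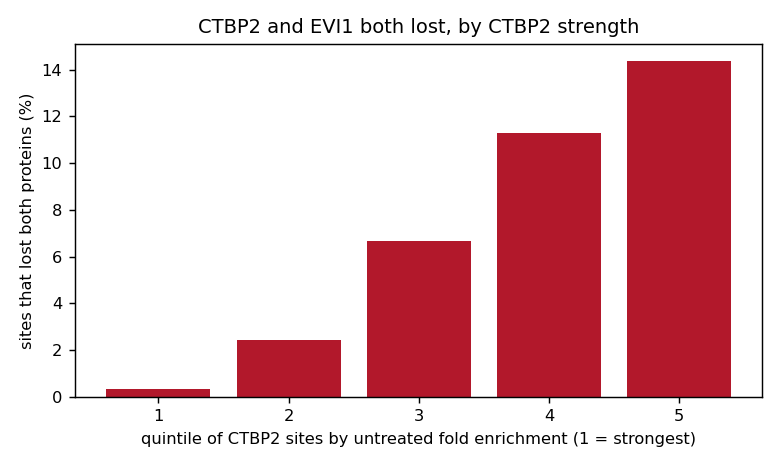
Percent of CTBP2 sites that lost both CTBP2 and EVI1 with dox, by quintile of fold enrichment in untreated CTBP2 replicate 1 (about 7445 sites a quintile). The bars rise from 0.322% in the strongest quintile to 14.4% in the weakest. The rule selected on peak calls of the same experiment, so the rise describes the selection.

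Strength was poorly reproduced within the set. Across the 2615 sites, Spearman's rho between the fold enrichments of the 2 untreated CTBP2 libraries was 0.33, against 0.61 across sites that kept both. For EVI1 it was 0.34 over the 1065 double-loss sites called in both lists, against 0.76. Between CTBP2 and EVI1 of the same replicate number rho was 0.26 and 0.21, against 0.56 and 0.53. These are descriptions across sites that share libraries, and the range of values in the double-loss set is narrow.

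Of the 2615 sites, 1550 met the EVI1 condition through a single untreated list. A dox CTBP2 peak lay within 100 bp without overlap at 9 sites and within 1 kb at 272 (10.4%), and a dox EVI1 peak at 35 and 621 (23.7%). The weaker of the 2 untreated CTBP2 peaks had a −log10 q under 2 at 67 sites, and the lowest value was 1.38. On the other side of the rule, 20 of the 10780 sites that kept EVI1 were left out for an overlap under 50 bp, and 2860 (26.5%) for a peak in only 1 of the 2 dox EVI1 libraries. The median gap to the nearest dox peak was 3772 bp for EVI1 and 10139.5 bp for CTBP2. Where both proteins were called untreated, their summits lay a median of 68 bp apart in replicate 1 and 86 bp in replicate 2, beside 65 and 78 bp at EVI1-kept sites and 49 and 62 bp at sites that kept both.

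Near STEAP4, a metalloreductase gene, the strongest double-loss site (54489 bp upstream, intergenic) had a CTBP2 fold enrichment of 15.7 and 12 and an EVI1 fold enrichment of 11.3 and 8.02 in the untreated libraries. It was also called for CTBP2 in unmodified MUTZ3 cells, at 6.07, and in 4xPLASS replicate 2, at 12.9. It was called in neither CTBP2 nor EVI1 dox library, so a site within the strongest 9.15% of both untreated CTBP2 lists was absent from all 4 dox lists.

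The site 36157 bp downstream of the start of POU3F3, a neural POU-domain transcription factor, had CTBP2 values of 12 and 13.5 and EVI1 values of 4.93 and 8.11. The intronic site of KANK1, a regulator of the actin cytoskeleton, had CTBP2 values of 11.3 and 13.4 and EVI1 values of 11.5 and 10.2, and was the one that ranked highest when all 4 untreated libraries counted. At both, EVI1 and CTBP2 were called in every untreated library and, outside the inducible experiment, a peak was called only in MOLM1 (9.99 and 10.9).

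The site in an exon of MPP4, a membrane scaffold gene, had CTBP2 values of 13.6 and 9.50 and EVI1 values of 9.38 and 10.6, and that in an exon of CELSR2, a cadherin of planar cell polarity, had 13.9 and 9.09 for CTBP2 and 8.96 and 13.1 for EVI1. The FAM131C site was the only one of the 10 sites printed first whose summit lay within 1 kb of a TSS, 76 bp upstream. It had 14.6 and 8.52 for CTBP2 and 9.30 and 10.3 for EVI1. The rest of the strongest 10 lay near CACNA2D2 (a calcium channel subunit), ARHGAP24, SLC2A10 (a glucose transporter family member), EFCAB2, EBF2 (an EBF-family transcription factor) and LACTB, with CTBP2 values between 9.14 and 15.5 and EVI1 values between 3.46 and 9.79. The strongest by both proteins also included sites near OSBPL11, OR4F16, an olfactory receptor gene, and BRSK1, a neuronal kinase gene.

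**Figure D2:**
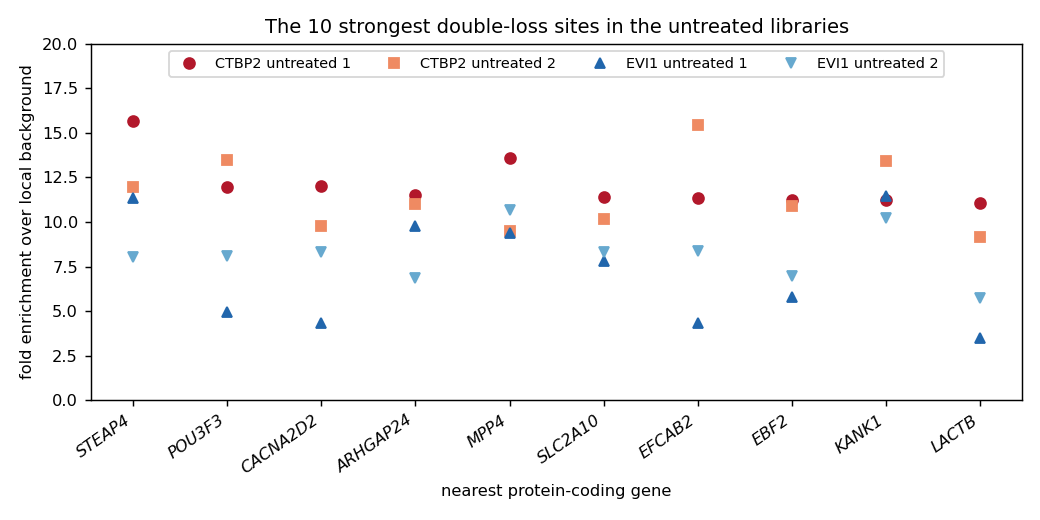
Fold enrichment over local background (linear axis) of the 10 strongest double-loss sites in the 4 untreated libraries, 1 point a library, named by the nearest protein-coding gene. CTBP2 lay between 9.14 and 15.7 and EVI1 between 3.46 and 11.5, and none had a peak with dox.

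In the libraries that the rule did not use, double-loss sites were called less often than sites that kept EVI1 or both proteins. EVI1 in unmodified MUTZ3 cells was called at 56 of 2615 double-loss sites (2.14%), where 39.3% of all CTBP2 sites were called. CTBP2 in unmodified MUTZ3 was called at 5.24% against 31.2% of all sites. In the 4xPLASS libraries the shares were 1.49% against 13.7% in replicate 1 and 13.4% against 52.2% in replicate 2. In MOLM1, 27.2% of double-loss sites carried CTBP2, against 61.9% of all sites. The 2 lists with the highest shares were also the 2 longest of the 5.

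Averaged over the 5 lists, 9.89% of double-loss sites were called, against 23.3% of sites that lost CTBP2 and kept EVI1, a difference of −13.4 ± 9.58 percentage points (SD, 5 lists). Against sites that kept both (55.3%) the difference was −45.4 ± 15.3. Against sites that lost CTBP2 without an untreated EVI1 peak (7.26%) it was 2.63 ± 2.48. Each difference had the same sign in 5 of 5 lists, with an exact two-sided sign-flip permutation p of 0.0625 for each, the smallest that 5 lists allow, and 0.0625 after Benjamini-Hochberg adjustment over the 3 comparisons. None passed 0.05. The last difference changed sign under 3 of the alternatives tried, among them −0.145 without EVI1 untreated replicate 1.

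Because CTBP2 strength differed between the sets, the shares were also set side by side within quintiles of fold enrichment in untreated CTBP2 replicate 1. EVI1 strength, which also differed between the sets, was not matched. Double-loss sites had the lower share in 22 of 25 combinations of quintile and list against sites that kept EVI1, and in 25 of 25 against sites that kept both. Against sites that lost CTBP2 without an untreated EVI1 peak they had the higher share in 17 of 20 combinations and the lower in 3. In the weakest quintile, MOLM1 carried CTBP2 at 24.7% of double-loss sites, 45.4% of EVI1-kept sites and 66.6% of sites that kept both. The 1065 sites with EVI1 in both untreated libraries and the 1550 with EVI1 in 1 were called at 2.91% and 1.61% for EVI1 in unmodified MUTZ3, and at 31.8% and 24% in MOLM1. For CTBP2 in unmodified MUTZ3 the shares were 6.57% and 4.32%, and in 4xPLASS replicate 2 16.6% and 11.2%. In 4xPLASS replicate 1 the order was reversed, at 0.845% and 1.94%.

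No peak of any of the 5 lists overlapped 1628 double-loss sites (62.3%), 730 were in 1 list, 215 in 2, 35 in 3 and 7 in 4. None was in all 5. The strongest of the 7 lay in an intron of HRH1, nearest to the start of ATG7, an autophagy enzyme gene, with CTBP2 at 10.6 and 13.1 in the untreated inducible libraries and at 7.06 and 5.90 in 4xPLASS cells. The others of the 5 best lay near DLGAP3, SIGLEC15, DAPK2, a death-associated kinase gene, and ANK1, the erythroid ankyrin gene. At ANK1 the site ranked 302 of the 6688 peaks of 4xPLASS replicate 1 and 854 in unmodified MUTZ3, yet had values of only 5.40 and 8.0 in the untreated inducible CTBP2 libraries.

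Double-loss sites lay near promoters less often than sites that kept EVI1 or both proteins. The CTBP2 summit was within 1 kb of the start of a protein-coding gene at 170 of the 2597 sites on chromosomes 1 to 22, X and Y (6.55%, 95% Wilson interval 5.66 to 7.56). That was 16.3 percentage points below EVI1-kept sites (22.9%, Newcombe interval of the difference −17.5 to −15), 23.1 points below both-kept sites (29.6%, −24.2 to −21.9) and 2.17 points above sites without EVI1 (4.38%, 0.812 to 3.49). The last difference was −5.69 (−7.43 to −3.93) with untreated and dox summits compared within 200 bp, and 0.417 with an interval that included 0 without EVI1 untreated replicate 2. The share of double-loss sites was 13.6% with that summit rule and 18.3% at a fold enrichment of at least 5, where the difference from both-kept sites was −6.86. The intervals cover counting error only, since all sites came from the same libraries. The median distance to a TSS was 22212 bp, beside 13456.5, 11892.5 and 21211 bp. Introns held 47.3% of summits, intergenic sequence 45.6% and exons 7.16%.

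Double-loss sites had a lower share near promoters than EVI1-kept and both-kept sites in every quintile of strength, although the strongest held only 24 of them (6 near a TSS). In the weakest quintile 5.92% of double-loss sites were within 1 kb of a TSS, against 14.6% of EVI1-kept and 11.9% of both-kept sites, and in the second strongest 10.1% against 30.9% and 35.1%. With the starts of all protein-coding transcripts in place of 1 per gene, the share of double-loss sites was 11.5%. They were not isolated from retained sites: the nearest site that kept both proteins lay a median of 13578 bp away, beside 14256.5 bp for EVI1-kept sites.

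Double-loss sites carried the ZEB-type E-box (CAGGTG) more often than sites that kept EVI1 alone or both proteins. It was present within 100 bp of the CTBP2 summit at 913 of 2597 double-loss sites (35.2%, Wilson interval 33.3 to 37), against 24.8% of EVI1-kept sites, 22.2% of both-kept sites and 25.4% of all CTBP2 sites. The differences were 10.3 points (Newcombe interval 8.31 to 12.3) and 13 points (11.1 to 14.9). Sites that lost CTBP2 and had no untreated EVI1 peak were at 43.7%, a difference of −8.57 points for double-loss sites that was 1.42 without CTBP2 untreated replicate 1. ZEB1 and ZEB2 are repressors that bind this sequence and contact CTBP through a PLDLS-type motif, but a match to 6 letters is a description of the sequence, and neither protein was measured here.

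The E-box was centred on the summit. It lay within 25 bp at 13.9% of double-loss sites, 8.71% of EVI1-kept sites, 8.15% of both-kept sites and 19.3% of sites without EVI1. In 50-bp bins the share at double-loss sites was 13% just downstream of the summit and 6.28% in the outermost bin upstream. At both-kept sites the same bins held 7.68% and 5.36%. Around the summit of untreated replicate 2 the 4 shares were 31.2%, 22.8%, 19.6% and 39.3%.

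Within classes of position, base composition and strength, the E-box was also more frequent at double-loss sites than at EVI1-kept and both-kept sites. Beyond 1 kb of a TSS the shares were 35.6% of double-loss, 26.4% of EVI1-kept and 22.6% of both-kept sites. With a GC content from 50% to 60% in the window they were 36.7%, 25.7% and 21.5%. In the weakest quintile they were 31.3%, 22.3% and 20.3%, and in the second strongest 45.3%, 27.6% and 21.8%. Sites that lost CTBP2 and had no untreated EVI1 peak had a higher share than double-loss sites in each of these classes. In the same order they were at 44.3%, 43.6%, 42.3% and 61.5%, the last of only 39 sites. The share was 33.6% at double-loss sites with EVI1 in both untreated libraries and 36.3% at those with EVI1 in 1. E-boxes with another centre were looked at after these values were seen. CAGCTG was present at 14.8% of double-loss, 17.7% of EVI1-kept and 16.8% of both-kept sites and at 12.1% of sites without EVI1. For the same 4 sets CACGTG was at 3.39%, 5.01%, 4.78% and 3.31%, and CATCTG at 15.4%, 16.0%, 15% and 14.1%.

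In MOLM1, 24.3% of the 913 double-loss sites with an E-box were called and 29.0% of the 1684 without. Their median CTBP2 fold enrichment was 6.04 and 4.84 with an E-box and 5.69 and 4.91 without, in untreated replicates 1 and 2.

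The letters known for EVI1 itself were rare. AGATAA, the GATA-like core bound by its first zinc finger domain, was present at 103 double-loss sites (3.97%), against 5.14% of EVI1-kept, 6.48% of both-kept and 5.70% of all CTBP2 sites. The longer GACAAGATA was present at 0 of 2597, which allows a share of up to 0.116%, and at 0.0923% of all sites. GAAGATGAG, for the second domain, was at 7 double-loss sites (0.270%) and 0.399% of all. No match says only that these letters were not in this window.

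Among the other motifs, the ETS letters GGAAGT were at 24.6% of double-loss sites, 23.9% of EVI1-kept, 31.5% of both-kept and 28.2% of all sites, and PU.1, whose letters contain them, at 5.20%, 5.12%, 7.20% and 6.32%. The GC box was at 14.2% of double-loss sites and 26.7% of all, with 28.3% at EVI1-kept and 29.8% at both-kept sites. Beyond 1 kb of a TSS it was at 12.8% of double-loss, 20.1% of EVI1-kept and 18.8% of both-kept sites. Within 1 kb the shares were 35.3%, 56.0% and 55.9%. RUNX, CEBP and AP-1 letters were at 17.9%, 6.08% and 6.05% of double-loss sites, close to the 17.9%, 5.98% and 6.31% of all sites. Beyond 1 kb of a TSS the same letters were at 18.4%, 6.10% and 6.14% of double-loss sites. There they were at 19.5%, 5.62% and 7.11% of EVI1-kept sites and at 22.9%, 7.59% and 8.08% of both-kept sites. CTCF, the insulator protein, had a match at 5.78% of double-loss sites and 4.75% of all. The median GC content of this window was 56% at double-loss sites and 58.5% at both-kept sites.

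The double-loss sites were spread over 2141 genes by nearest TSS, 10.6% of the 20136 protein-coding genes on the main chromosomes. Of these genes 1777 had 1 such site, 293 had 2 and 71 had 3 or more. A site that kept both proteins was assigned to 1613 of them (75.3%), and at 254 genes every CTBP2 site was a double-loss site. The matching shares over all 13629 genes with a CTBP2 site are not given here, so these counts are not read as particular to the genes. By chromosome the share of CTBP2 sites that lost both ran from 3.47% on X to 10.0% on 22.

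The gene with the most was TMEM121, with 7, but all 7 lay in the immunoglobulin heavy chain locus (IGH genes from chr14:106053226-107288019), whose segments are not listed as protein-coding. That locus held 75 CTBP2 sites, of which 7 lost both proteins (9.33%) and 37 kept both. DNAJB6, a chaperone gene, was the nearest for 5 double-loss sites of 24 CTBP2 sites. Those in its own introns lay 17352 and 22066 bp from its start. The others lay far off, in introns of PTPRN2 (258823 and 516487 bp) and in intergenic sequence (167632 bp). NTNG2, which encodes a netrin family protein, had 4 of 10, DDIT4, a stress-induced inhibitor of mTOR signalling, 4 of 13, and RREB1, a zinc finger transcription factor, 4 of 17.

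The CTBP corepressor complex and its DNA-binding partners were represented by 8 of 25 genes with 14 double-loss sites, 7.95% of the 176 CTBP2 sites of these genes, where 7.05% of CTBP2 sites of all genes were double-loss sites. RREB1, whose product binds CTBP, had the strongest, 250412 bp upstream, with CTBP2 at 10.5 and 6.77 and EVI1 at 6.22 in untreated replicate 2 only. The site nearest to SOX6, a transcription factor that also binds CTBP2, lay in an intron of PLEKHA7, with CTBP2 at 6.82 and 6.58 and EVI1 at 5.62 and 6.69. That nearest to TGIF1, a homeobox corepressor of the TGF-beta pathway, lay in an intron of DLGAP1, with 6.31 and 5.54 for CTBP2 and 6.22 for EVI1 in replicate 1 only.

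Genes of neutrophil and monocyte differentiation had a double-loss site at 8 of 30, 10 sites in all and 8.06% of their 124 CTBP2 sites. The strongest were weak sites assigned to CEBPD, a myeloid transcription factor, KLF4, a factor of monocytes, and PADI4, which citrullinates histones in neutrophils. The CEBPD site lay 139199 bp downstream of the start, in an exon of SPIDR, and the KLF4 site 193627 bp upstream. At PADI4 the site lay 3766 bp upstream, with CTBP2 at 5.41 and 4.40 and EVI1 at 3.83 in untreated replicate 2 only. In MOLM1 the same site was at 25.4, rank 1200 of 64569 peaks. EVI1 was called in 1 untreated library at all 3 of these sites.

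Stem cell transcription factors had double-loss sites at 4 of 25 genes, 6 sites and 3.55% of their 169 CTBP2 sites. ETV6, an ETS-family repressor, had one in an intron, with CTBP2 at 7.45 and 11.0 and EVI1 at 5.76 and 4.06. HHEX and BCL11A had weaker ones, with CTBP2 values between 4.06 and 8.05. Erythroid and megakaryocyte genes had 2 of 23, with 2 sites and 4.55% of their 44 CTBP2 sites. The 2 genes were BCL2L1, an anti-apoptotic gene, and EPOR, the erythropoietin receptor. Their sites lay 2127 and 1388 bp downstream of the start, with CTBP2 at 5.72 and 4.52 at BCL2L1 and at 4.56 and 3.44 at EPOR.

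TGF-beta and SMAD pathway genes had 7 of 26, with 9 sites and 6.0% of 150. SMAD3, a signal transducer of the pathway, had an intronic site with CTBP2 at 6.72 and 7.24, SMAD2 a distal one at 11.4 and 5.52, and SMURF1, a ubiquitin ligase for SMAD proteins, an intronic one at 5.72 and 6.34. Blood growth factor receptors and signalling genes had 5 of 24, with 7 sites and 6.73% of 104. The strongest lay in introns of IGF1R (CTBP2 8.60 and 7.38, EVI1 12.2 and 7.88) and PDGFRB and upstream of IL3RA, the interleukin-3 receptor chain. Surface and adhesion genes of stem cells had 7 of 29, with 8 sites and 4.94% of 162. LY9, PROM1 and ITGA6 were among them, with EVI1 called in untreated replicate 2 only at these 3. Across the 7 lists the share of CTBP2 sites that were double-loss sites ran from 3.55% to 8.06%, around the 7.05% of all genes.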

How the data were processed

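ChIP-seq peak lists of 13 of the 31 samples were used, 8 of them to select the sites. The other 18 are inputs or libraries not analysed here. Per the study's methods, the authors mapped reads to hg19 using Bowtie, and MACS2 at default settings called peaks per library over the matched input. The labels list a single untreated and a single dox input for the inducible experiment. A difference between these inputs cannot be told apart from dox. The submitters' processing notes name Bowtie 1.1.1 and MACS2 2.1.2. Deposited fold enrichment values compare the summit signal with local background as a ratio. MACS2 also gave each deposited peak its −log10 p and its −log10 q. The deposited score, a display value, was not used. No read counts are in the lists, so no differential binding model was run and the intervals cover counting error only.

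Peaks were merged and overlapped at 1 bp in Python 3.11.15 with pandas 2.3.3, and the rule was checked against bedtools 2.31.1 and on simulated lists. Genes and TSSs came from GENCODE release 44 mapped to GRCh37, with 1 TSS a gene. Sequence came from GRCh37 through pysam 0.24.0. Wilson and Newcombe intervals are at the 95% level (scipy 1.17.1, statsmodels 0.14.6). Shares in the 5 other lists were compared by an exact two-sided sign-flip permutation test over lists.

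The sites, the gene lists and the motifs were chosen with earlier results of these data known. Named were the 10 sites with the best worst percentile over the untreated CTBP2 lists, the 8 best over the 4 untreated lists with EVI1 in both, up to 3 per gene list, the 5 genes with the most sites, of which the last were taken from a tie by strength, and the 5 best of those in the most other lists. Of 25 listed receptor and signalling genes 24 were matched, the other being an older name of one already in the list. Alternatives were thresholds, overlap rules, list size, the EVI1 call, the rule for loss, libraries left out, TSS distance, motif window and replicate numbers. All alternatives for the E-box and TSS differences, and the starts of all transcripts, were added after the data were seen.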

Additional observations from a re-analysis of the deposited data

How the results depend on the processing

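The number of double-loss sites stayed within 1.5 times of 2615 under 9 of 18 alternatives (1988 to 3318) and left that range under the other 9. It was 297 with lists of equal size, 1065 with EVI1 required in both untreated lists and 6488 when loss in 1 dox list of each target was enough. Leaving out 1 of the 8 libraries gave 1360 to 8644: 4759 without CTBP2 untreated replicate 1, 8644 without its replicate 2, 1360 without EVI1 untreated replicate 2 and 4772 without EVI1 dox replicate 1. The pool of CTBP2 sites also changed with equal lists and without an untreated CTBP2 library, so these are counts and not shares. As the replicate block, the rule within replicate number 1 gave 4240 sites and within number 2 gave 7013. The labels give these numbers with no shared batch. The share within 1 kb of a TSS was 10.9% at −log10 q of at least 5, 18.3% at fold enrichment of at least 5, 13.6% with summits within 200 bp, 10.2% with equal lists, 7.66% with EVI1 in both untreated lists, 9.57% with loss in 1 dox list, 8.81% and 14% within replicate numbers 1 and 2, and 6.43% to 9.63% with a library left out. Within 500 bp of a TSS it was 4.08%, within 5 kb 20.2%, and 11.5% over all transcript starts. The differences from EVI1-kept and both-kept sites kept their sign under every alternative run, for the 5 other lists (−18.1 to −11.0 and −51.6 to −40.2 points), for TSS (−20.7 to −9.58 and −24.6 to −6.86) and for the E-box (6.45 to 12.8 and 8.47 to 16.9).

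The differences from CTBP2-lost sites without EVI1 were less stable, and the cause was not tested. For the 5 other lists this difference was −1.65 with summits within 200 bp, −1.0 within replicate number 2 and −0.145 to 4.48 with a library left out, negative without EVI1 untreated replicate 1. For TSS it was −5.69 with summits within 200 bp, and its interval reached 0 with equal lists (4.96), within replicate number 1 (0.269) and without EVI1 untreated replicate 2, with 0.417 to 5.25 over libraries left out. For the E-box it was −7.89 with equal lists, with an interval that reached 0, 5.55 within replicate number 2, and −10.8 to 1.42 with a library left out, positive without CTBP2 untreated replicate 1. The E-box share of double-loss sites was 21.3% within 50 bp and 31.2% around the replicate 2 summit. Counting any TSS within 100 kb raised the genes with a double-loss site to 13 for neutrophil and monocyte, 5 for erythroid and megakaryocyte, 10 for receptor and signalling genes and 5793 of all genes. Ranking by −log10 p kept 3 of the 10 strongest sites. With no read counts, a lost site and a shallower dox library cannot be told apart.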
